A study of Mus musculus with 192 samples.

Results

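The extracellular matrix genes other than collagens were followed in single embryonic fibroblasts (MEFs), which are primary connective-tissue cells taken from mouse embryos, here of strain C57BL/6. They form a fixed list of 39 genes, chosen by name but with earlier results of these data known. A deposited start-site window counted for a member where the RefSeq annotation named that gene and placed the window at most 1000 bp from its annotated start. A cell's peak counted where it lay on the gene's strand and began within 2 bp of such a window. Of the 39 genes, 34 had a window within that limit and 33 had a listed peak in at least 1 cell, against 11690 genes with such a peak in all. The 6 without one were Eln, Mfap2, Mfap4, Loxl2, Lum and Igfbp3.

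Single-cell start-site sequencing sequences from the 5′ end of a polyadenylated transcript, and each read, called a tag, marks a captured 5′ end. Per the labels, all cells had received interferon-beta, a secreted antiviral protein, at 100 U/ml for 1 h. Of these, 96 are labelled naïve and 96 pretreated, and the labels do not give the nature of the pretreatment. No animal, culture or plate is named, so each group counted as 1 sample, no test between the groups was run, and no difference below has a replicate check.

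Fibroblasts build the matrix that holds connective tissue together. Besides collagens they secrete adhesive glycoproteins that cells bind to, fibulins and microfibril proteins that carry elastic fibres, proteoglycans whose sugar chains hold water and growth factors, and enzymes that fold, trim and cross-link collagen. Matrix metalloproteinases cut these proteins, and tissue inhibitors of metalloproteinases (TIMPs) block that cutting.

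Cells with under 10% of the median total of tags were left out, which kept 92 naïve and 85 pretreated cells. Kept naïve cells held 305066 to 3857034 tags (median 2305628) and kept pretreated cells 502374 to 13174313 (median 2650490). Tags near the RefSeq starts of all genes summed to 110248086 in naïve and 174954685 in pretreated cells, and CPM below means tags per 1000000 of these. Only tags near the starts enter CPM, which has no correction for transcript length. Fibroblast markers were high in both groups, at 2296 summed CPM in naïve and 2881 in pretreated cells over 12 of 14 listed genes. All 8 epithelial, 9 muscle and 8 erythroid markers were listed at 0. Endothelial, leukocyte, neural and chondrocyte markers summed to at most 15.4 CPM in either group, and adipocyte markers to 38.6 and 52.5 CPM.

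Matrix genes took 1.18% of the promoter tags in naïve cells and 1.34% in pretreated ones. Their summed level was 11776 CPM (naïve) and 13406 CPM (pretreated), a log2 ratio of pretreated over naïve of 0.19 (95% counting interval 0.18 to 0.19). Sparc alone held 46.3% and 46.7% of these tags, and without it the sums were 6320 and 7150 CPM. In single cells the share ran from 0.375% over a median of 1.11% to 2.501% in naïve cells, and from 0.660% over 1.27% to 2.38% in pretreated cells. The ranges of the 2 groups overlapped almost completely. A naïve cell listed 4 to 16 of the 39 genes, with a median of 12, and a pretreated cell listed 5 to 19, with a median of 15. Every interval here covers counting error only, since tags are reads with no molecular identifiers.

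Among genes with a mean of the 2 group levels of at least 20 CPM and peaks in 20% or more of either group's cells, 18 matrix genes could be called. Thbs1, Fbln5, Bgn and Timp1 were at least 2-fold higher in pretreated cells. Over all 4046 genes that met the same minimum, 21.8% were at least 2-fold higher. Fn1, Vcan and Sdc4 were at least 2-fold lower in pretreated cells, against 11.3% of all genes. The remaining 11 were within 2-fold, and 33.2% of all genes were past it in either direction. So 7 of 18 matrix genes stood past 2-fold, close to the share in the whole table. Over the 19 matrix genes at or above 20 CPM, which adds Mfap5, the median log2 ratio was 0.038, with quartiles of -0.82 and 0.81, and 10 were higher. Over the 4232 genes at that level the median was 0.21 and 59.6% were higher. Scaling by the median of the gene ratios moves every log2 ratio down by 0.21. On that scale Sparc (-0.015), Fstl1 (-0.18) and Serpinh1 (-0.095) change sign, the summed level is -0.026, and 3 members are past 2-fold higher and 4 lower, against 16.2% and 14.6% of all genes. Scaled per 1000000 header tags the split over the 16 members callable there is 5 higher and 2 lower, against 24.97% and 9.77%. With each cell scaled to its own total it is 3 and 4 of 18, against 21.2% and 10.97%.

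**Figure D1:**
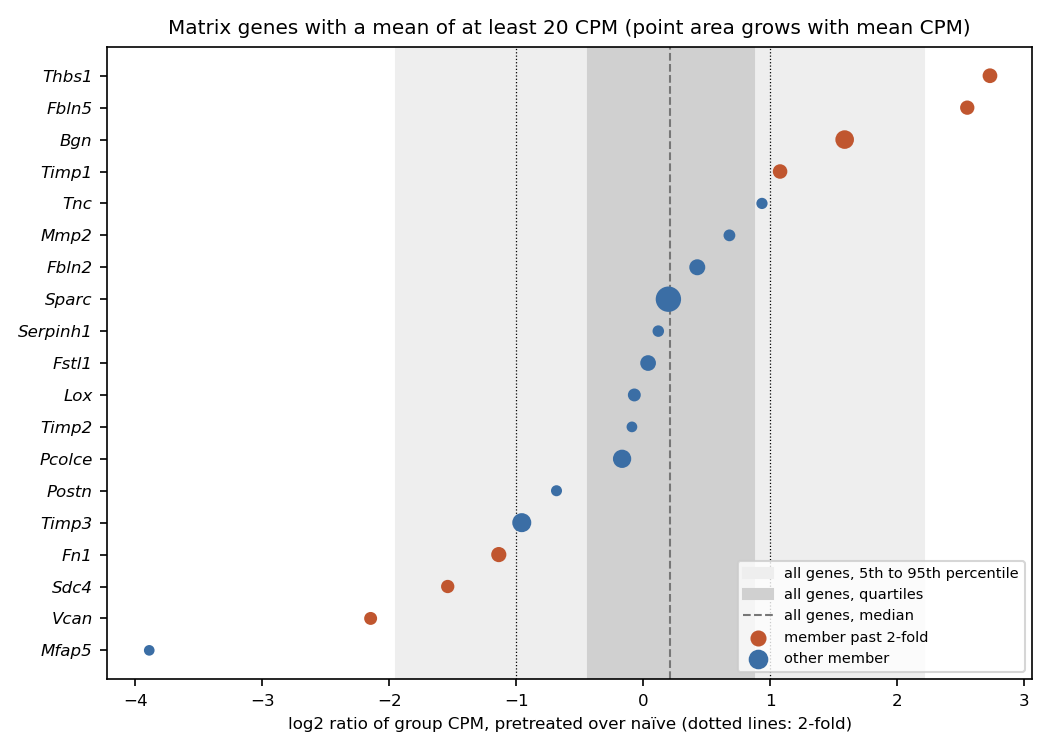
The x axis gives the log2 ratio of the group CPM, pretreated over naïve, for the 19 matrix genes with a mean of at least 20 CPM, ordered from lowest to highest; grey bands span the quartiles and the 5th to 95th percentiles of 4232 genes. Thbs1, Fbln5, Bgn and Timp1 lie right of the 2-fold line, Fn1, Sdc4 and Vcan left of it, and Mfap5 at -3.89 had peaks in too few cells to be called.

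RefSeq promoter sequence on build GRCm38.p6 was at hand for 25 of the 39 genes. The stretches below run from 80 bases before to 20 after the RefSeq start, 5′ to 3′ on the gene's strand. They are shown for the 3 most abundant matrix genes (Sparc, Timp3, Bgn), for the pair most reduced in pretreated cells among those that could be called (Vcan, Sdc4), and for Fbln1, Fbln5, Serpinh1, Timp1 and Timp2, whose leading position in a group lay over 100 bp inside the RefSeq start used for the windows. The Fbln1 and Timp2 leads rest on few cells. Capitals mark the GC box GGGCGG, read as CCGCCC where it lies on the other strand.
Sparc (chr11:55420061-55420160, - strand): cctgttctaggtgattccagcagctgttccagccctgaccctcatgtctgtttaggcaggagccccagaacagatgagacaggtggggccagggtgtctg
Timp3 (chr10:86300332-86300431, + strand): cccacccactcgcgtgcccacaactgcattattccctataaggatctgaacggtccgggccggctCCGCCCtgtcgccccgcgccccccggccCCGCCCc
Bgn (chrX:73483521-73483620, + strand): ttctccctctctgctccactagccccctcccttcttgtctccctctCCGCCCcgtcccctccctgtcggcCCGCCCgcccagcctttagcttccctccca
Vcan (chr13:89742493-89742592, - strand): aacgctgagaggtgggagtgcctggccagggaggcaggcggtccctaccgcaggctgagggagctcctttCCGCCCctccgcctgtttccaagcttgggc
Sdc4 (chr2:164443169-164443268, - strand): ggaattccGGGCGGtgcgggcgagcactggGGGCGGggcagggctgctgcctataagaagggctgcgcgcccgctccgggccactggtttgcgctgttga
Fbln1, first RefSeq start (chr15:85205869-85205968, + strand): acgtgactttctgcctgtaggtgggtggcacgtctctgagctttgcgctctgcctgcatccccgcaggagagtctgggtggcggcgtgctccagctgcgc
Fbln1, second RefSeq start (chr15:85205928-85206027, + strand): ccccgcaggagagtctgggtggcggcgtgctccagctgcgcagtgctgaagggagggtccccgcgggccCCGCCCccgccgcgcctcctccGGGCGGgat
Fbln5, first RefSeq start (chr12:101819100-101819199, - strand): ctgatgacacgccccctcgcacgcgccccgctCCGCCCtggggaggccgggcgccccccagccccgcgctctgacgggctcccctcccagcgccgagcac
Fbln5, second RefSeq start (chr12:101818465-101818564, - strand): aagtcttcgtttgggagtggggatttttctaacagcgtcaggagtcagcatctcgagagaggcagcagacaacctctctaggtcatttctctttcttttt
Serpinh1 (chr7:99353220-99353319, - strand): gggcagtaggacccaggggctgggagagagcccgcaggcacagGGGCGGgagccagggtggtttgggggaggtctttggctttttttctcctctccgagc
Timp1 (chrX:20870086-20870185, + strand): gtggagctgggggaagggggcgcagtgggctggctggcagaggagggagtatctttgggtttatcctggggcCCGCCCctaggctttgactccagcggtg
Timp2 (chr11:118355392-118355491, - strand): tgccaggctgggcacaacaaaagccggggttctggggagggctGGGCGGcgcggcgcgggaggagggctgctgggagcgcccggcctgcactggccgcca
The measured positions are on build mm9 and were not carried over, so no base above is marked as a measured start. GGGCGG stood on either strand in 21 of 30 matrix gene promoters (70%), taken from 250 bases before to 50 after the start, against 35.7% of 32851 promoters. Sparc held none. TATAAA in the 40 bases before the start was in 2 of 30, those of Postn and Igfbp4, against 2.31% of all. TGANTCA was in none of the 30 on either strand, against 7.81% of all. The median number of CpG dinucleotides was 15, against 7 over all promoters. All distances here are from RefSeq starts, and for several members the measured positions lie further in, so the bases before those were not searched. The 30 promoters include those of Mfap2 and Igfbp3, which had no listed peak. The 32851 were not limited to genes with a peak. These letter matches are descriptions and not sites.

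Of the 7 adhesive and matricellular glycoproteins, all were listed and 6 could be called, 1 higher and 1 lower. Sparc, a collagen-binding glycoprotein that tunes matrix assembly, was the most abundant member. It had peaks in all 92 naïve and all 85 pretreated cells, at 5456 and 6256 CPM. Its single-cell levels ran from 1621 over a median of 5350 to 11527 CPM in naïve and from 1287 over 6140 to 11548 CPM in pretreated cells, and the groups overlapped over nearly their whole range. Thbs1, thrombospondin 1, a matricellular protein known to activate latent TGF-beta, was 83.97 CPM in naïve cells and 557 CPM in pretreated cells. Naïve cells ran from 0 over a median of 38.9 to 844 CPM and pretreated cells from 0 over 404 to 2137 CPM. This was 6.63-fold higher (log2 ratio 2.73), with peaks in 52.2% of naïve and 94.1% of pretreated cells. The log2 ratio was 2.36 in odd-numbered and 2.93 in even-numbered cells. With windows at any distance from the start counted, the levels were 480 and 1123 CPM and the log2 ratio 1.22. One pretreated cell held 18.1% of the pretreated Thbs1 tags.

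Fn1 encodes fibronectin, the main adhesive protein of the fibroblast matrix. Its level was 530 CPM in naïve cells and 241 CPM in pretreated cells, with single cells from 0 over a median of 310 to 3872 CPM and from 0 over 209 to 967 CPM. The cells overlapped between the groups, the naïve ones reaching further up. The share of cells with a peak went the other way, 82.6% against 88.2%. The log2 ratio of -1.14 was -1.61 in odd-numbered and -0.71 in even-numbered cells, and -0.97 per 1000000 header tags and -0.52 with windows at any distance, so the 2-fold call rests on the choice of cells, scaling and windows. Fstl1, a follistatin-like secreted glycoprotein, was 468 and 480 CPM. Its first 300 bases share 50-base runs with transcripts of 3 other genes in the annotation, so its tags are uncertain. Tnc, tenascin-C, was 26.3 CPM in 12 naïve cells and 50.2 CPM in 26 pretreated cells. Postn, periostin, was 38.8 and 24.2 CPM, and Thbs2 was 12.7 and 4.94 CPM in 7 and 6 cells.

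Of the 8 genes of elastic fibres and microfibrils, 5 were listed and 2 could be called, with 1 higher. Fbln5, fibulin-5, which binds elastin and is needed for elastic fibre assembly, was listed in 35 naïve and 82 pretreated cells. The median naïve cell had none listed and the highest 777 CPM, while pretreated cells had a median of 456 and a highest of 1477 CPM. The group levels of 77.4 and 453 CPM make it 5.86-fold higher (log2 ratio 2.55), with 2.997 in odd-numbered and 2.18 in even-numbered cells. Counting only windows within 100 bp of the start leaves 7.40 and 8.71 CPM and a log2 ratio of 0.23, since its main start lies further in. Fbln2, fibulin-2, was 451 and 605 CPM, with single cells from 0 over 289 to 12729 CPM and from 0 over 509 to 1954 CPM. The highest naïve value came from 1 shallow cell of 27340 promoter tags, and the next highest naïve cell was at 1968 CPM. With each cell scaled to its own total the Fbln2 log2 ratio of 0.42 becomes -0.043. That scaling gives the shallow cell the same weight as any other, and the ratio without it was not computed on that scale. Mfap5, a microfibril-associated glycoprotein, was 39.8 CPM in 13 naïve cells and 2.68 CPM in 4 pretreated cells. Fbln1 was 11.3 and 9.60 CPM, in 11 cells of each group, and Fbn1, fibrillin-1, had a promoter peak in 1 and 3 cells. Tags anywhere in the annotated Fbn1 transcript were in 65 naïve and 57 pretreated cells. Eln, elastin itself, had no listed promoter peak.

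Proteoglycans held both directions: of 6 genes, 5 were listed and 3 could be called, 1 higher and 2 lower. Bgn encodes biglycan, a small proteoglycan with leucine-rich repeats that binds collagen fibrils. Naïve cells ran from 0 over a median of 533 to 2287 CPM, and pretreated cells from 442 over 1625 to 5517 CPM. Every pretreated cell listed it, against 82 of 92 naïve cells. The group levels of 621 and 1863 CPM make it 3.001-fold higher (log2 ratio 1.59), with 1.55 in odd-numbered and 1.56 in even-numbered cells. Vcan, versican, a large chondroitin sulfate proteoglycan of loose matrix, was 214 CPM in naïve cells and 48.4 CPM in pretreated cells. Naïve cells ran from 0 over 182 to 950 CPM and pretreated cells from 0 over 35.2 to 491 CPM. It was 4.43-fold lower (log2 ratio -2.15), with -1.83 and -2.42 in odd- and even-numbered cells, and was listed in 61 and 45 cells. Sdc4, syndecan-4, a membrane proteoglycan that works with integrins at focal adhesions, was 239 and 82.2 CPM. Its naïve cells ran from 0 over 157 to 1053 CPM and its pretreated cells from 0 over 52.2 to 440 CPM. It was 2.91-fold lower (log2 ratio -1.54), with -1.52 and -1.49 in odd- and even-numbered cells. With windows at any distance it was 286 and 151 CPM (log2 ratio -0.92), short of 2-fold. Dcn, decorin, was listed in 3 and 1 cells and Hspg2, perlecan, in 0 and 4.

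Timp3, a TIMP that stays bound to the matrix, was the most abundant of the 5 proteases and inhibitors. All 5 were listed and 4 could be called, 1 higher. Timp3 stood at 1843 CPM in naïve and at 949 CPM in pretreated cells (log2 ratio -0.96), just short of 2-fold. Single cells ran from 0 over a median of 1367 to 9903 CPM and from 0 over 745 to 3295 CPM, with the naïve cells reaching higher. It was past 2-fold in 4 of 15 alternatives, among them scaling by the median of the gene ratios, at -1.17. Timp1, a soluble TIMP, was 189 CPM in naïve cells and 398 CPM in pretreated cells, from 0 over 130 to 1398 CPM and from 0 over 370 to 1181 CPM. It was 2.11-fold higher (log2 ratio 1.08), but fell short of 2-fold in 6 of 15 alternatives, with 0.94 in even-numbered cells, 0.86 after scaling by the median of the gene ratios, 0.54 in cells of 2000000 to 3000000 tags and 0.39 over windows listed in both groups. Counting only windows within 100 bp of the start turned its direction, to 155 and 121 CPM (log2 ratio -0.36). Mmp2, a gelatinase, was 46.99 CPM in 23 naïve cells and 75.2 CPM in 54 pretreated cells. Timp2 was 23.6 and 22.2 CPM, and Mmp14, a membrane-bound metalloproteinase, was 3.63 and 9.002 CPM. Tags anywhere in the annotated Mmp14 transcript were in 76 naïve and 81 pretreated cells, with 1.15% and 3.81% of them near the start.

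Of the 6 genes that fold, process or cross-link collagen, 5 were listed, 3 could be called, and none was past 2-fold. Pcolce, which enhances the trimming of procollagen, had peaks in every kept cell at 1193 and 1063 CPM. Its single cells ran from 42.8 over 1136 to 3433 CPM and from 107 over 954 to 2788 CPM, overlapping almost fully. Part of its first 300 bases is also in a transcript annotated to Fbxo24. Lox, lysyl oxidase, which cross-links collagen and elastin, was 131 and 125 CPM in 53 and 69 cells. Serpinh1, a collagen chaperone, was 46.3 and 50.2 CPM. Loxl1 and Plod2 were at most 9.10 CPM. All 4 basement membrane genes (Lamb1, Lamc1, Nid1, Nid2) had promoter peaks in at most 9 cells of a group and none could be called. Tags anywhere in their annotated transcripts were in more cells. For Nid1 these were 61 naïve and 60 pretreated cells, for Lamb1 55 and 57, for Lamc1 51 and 48, and for Nid2 28 and 14. Lamb1, a laminin chain, was 2.55 and 15.1 CPM in 2 and 9 cells. Of the 3 insulin-like growth factor binding proteins, Igfbp7 was listed in 2 and 1 cells and Igfbp4 in 0 and 3.

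**Figure D2:**
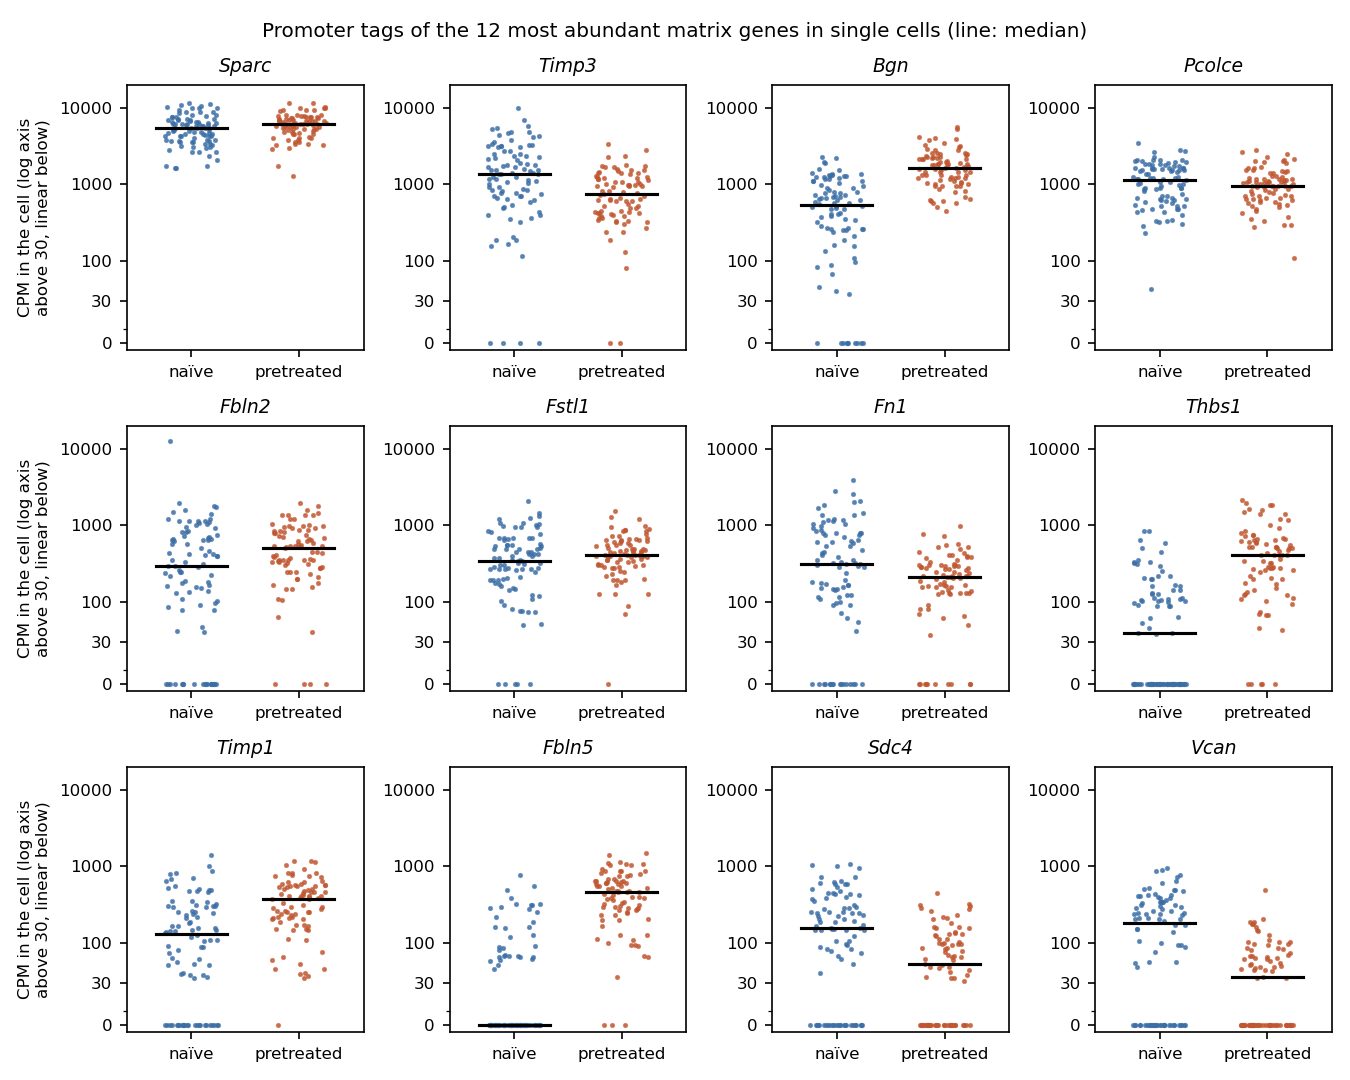
Each point is 1 cell, with CPM on the y axis (log above 30, linear below) for the 12 most abundant matrix genes, naïve cells in blue and pretreated cells in orange; lines are medians over all cells of the group. Every pretreated cell lists Bgn at 442 CPM or more, while the median naïve cell has no listed Fbln5.

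Abundant matrix genes were detected in more cells than most genes. Over the 18 callable members the median share of cells with a peak was 69.6% (naïve) and 91.2% (pretreated), against 32.6% and 57.6% over all callable genes. Of the 18, 13 were listed in a larger share of pretreated cells. The same count was not taken over all callable genes, whose median share also rose, so it marks nothing particular to the members. Over all 39 it was 10.9% and 12.9%. Pretreated cells held more promoter tags, with a median of 1591804 a cell against 1198998. In the 28 naïve and 34 pretreated cells of 2000000 to 3000000 tags those medians were 1443292 (pretreated) and 1442420 (naïve). There the share over all 39 was 10.7% (naïve) and 11.8% (pretreated). The shares of the 18 callable members were not recomputed at like depth.

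The peaks were called 150 bp wide and at least 300 bp apart, so a cell lists 1 position for each start region, and the values here count cells by the position of the peak with most tags. Of the 19 matrix genes with peaks in at least 10 cells of both groups, 13 (68.4%) had the same leading position in both groups, against 41.3% of 4017 genes. Leading positions within 50 bp of each other were less frequent than over all genes, in 15 (78.9%) against 91.6%. Those further apart were Fbln1, Lox, Mmp2 and Timp1, and their leads rest on few cells. The naïve and pretreated leads were held by 3 and 2 cells for Fbln1, 7 and 4 for Lox, and 3 and 6 for Mmp2. The pretreated Lox and naïve Mmp2 leads tie with other positions and were set by window order. The lower share is therefore not read as a trait of the members. In Fn1 the peak stood 63 bp from the RefSeq start in 69 of 76 naïve and 74 of 75 pretreated cells (mm9, chr1:71699671-71699820, - strand). Timp3 used 1 position, 143 bp from the RefSeq start and in the 5′ UTR, in 83 of 88 and 77 of 83 cells (chr10:85763226-85763375, + strand). Serpinh1 had its main position 126 bp in for 28 of 30 and 35 of 48 cells.

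Sparc had a pair of main positions in its 5′ UTR. The one 213 bp from the RefSeq start (chr11:55233295-55233444, - strand) was the main one in 66 of 92 naïve cells (71.7%) and 47 of 85 pretreated cells (55.3%). The one 231 bp from it was the main one in 22 naïve cells (23.9%, 95% exact interval 15.6% to 33.9%) and 38 pretreated cells (44.7%, 33.9% to 55.9%). In the 28 naïve and 34 pretreated cells of 2000000 to 3000000 tags these shares were 32.1% and 38.2%. The difference was smaller there, but these cells are few, and an effect of depth was not tested. HOMER's focus ratio, the fraction of tags in a peak that fall next to its highest point, had medians of 0.729 and 0.616 at 213 bp and of 0.999 and 0.982 at 231 bp. Bgn had its main position 34 bp from the start in 40 of 82 naïve and 65 of 85 pretreated cells, and 36 bp from it in 22 and 4. Peaks were joined to windows within 2 bp, so positions that close are barely resolved.

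The leading Timp1 position differed by 821 bp between the groups. Windows over 300 bp from its RefSeq start held 17.02% of its naïve and 43.6% of its pretreated tags, in 38 and 79 cells. The window at 898 bp (chrX:20448116-20448265, + strand, annotated as exon) was the main position in 0 of 68 naïve and 10 of 84 pretreated cells, and the one at 77 bp in 16 and 9. The pretreated lead thus rests on 10 against 9 cells. A nearby exon window at 880 bp was the main position in 12 naïve and 5 pretreated cells, so part of the contrast at 898 bp is one of exact position. In cells of 2000000 to 3000000 tags the far share was 9.55% and 44.95%. Lox kept 93.1% and 87.3% of its tags over 300 bp from the start, spread over 27 positions in 53 naïve cells and 43 positions in 69 pretreated cells. Fbln5 was centred 237 bp in, with 8 of 35 naïve and 36 of 82 pretreated cells at 1 position (chr12:103057018-103057167, - strand). Vcan had its leading position at 189 bp in 20 of 61 and 12 of 45 cells and the next at 159 bp in 17 and 10.

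**Figure D3:**
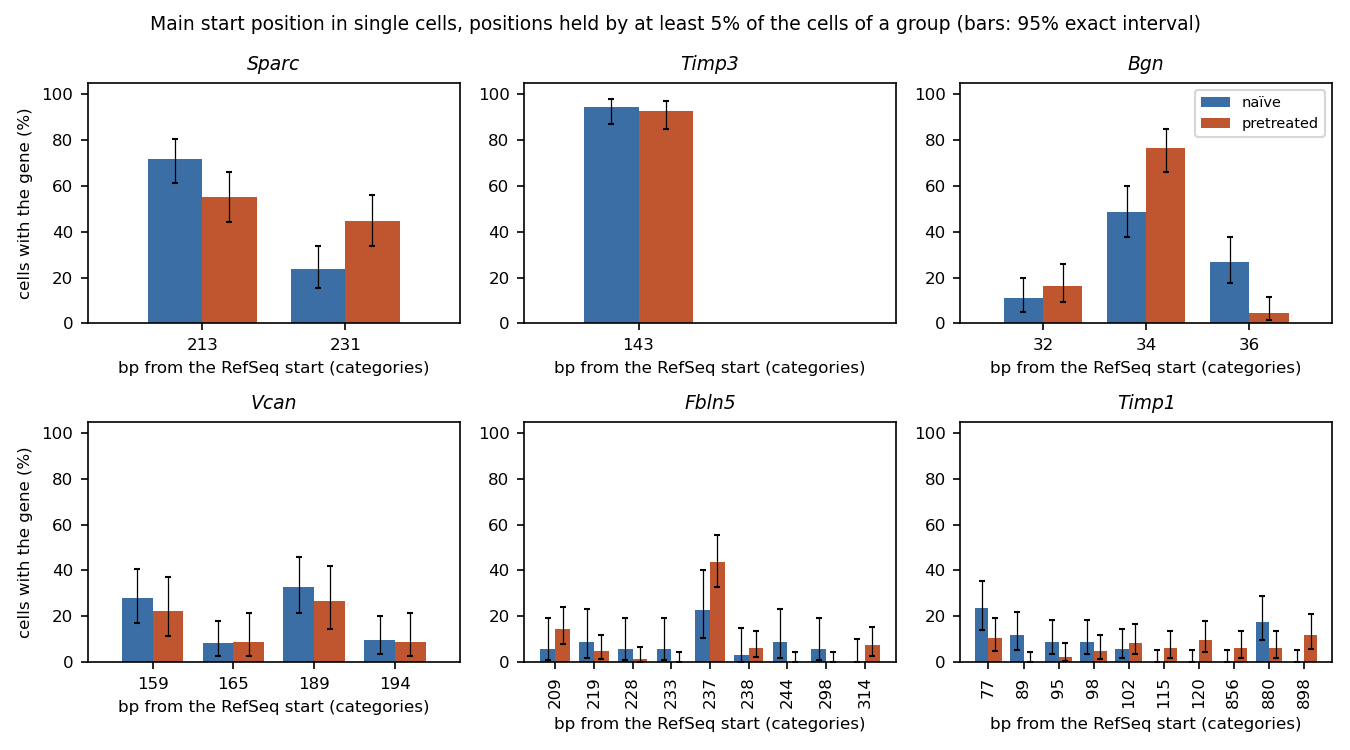
The x axis lists, as categories, the distance in bp from the RefSeq start of each main position held by 5% or more of either group's cells, and the y axis gives the percentage of cells that list the gene; error bars are 95% exact intervals. Timp3 has 1 bar pair near 94.3% and 92.8%, Sparc has a pair of positions, and Fbln5 and Timp1 are spread over many.

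How far these starts lie from the annotation depends on which annotation is read. By RefSeq, 21.9% of the matrix gene tags in naïve and 30.3% in pretreated cells lay within 50 bp of the start, against 62.7% and 63.3% over all genes, and 40.7% and 56.8% without Sparc. In the deposited GENCODE table the shares were 87.3% and 83.1%, against 80.02% and 78.2% over all genes. The Sparc positions at 213 and 231 bp are 31 and 49 bp from a GENCODE start, the Timp3 position is at 1 bp, the leading Vcan position at -1 bp, and those of Fn1, Bgn and Sdc4 at 0 bp. Of the 17 members whose leading naïve position could be read in both tables, 8 lay over 100 bp from a RefSeq start and 5 over 100 bp from a GENCODE start: Fbln1, Fbln5, Lox, Serpinh1 and Timp2. Over 3489 genes read the same way these shares were 18.5% and 10.5%. Some of these leads rest on few naïve cells, 3 of 11 for Fbln1 and 7 of 53 for Lox. The Timp2 lead rests on 2 of 10 and ties with a position 87 bp from the RefSeq start.

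Peaks of matrix genes were less focused in pretreated cells, as were those of most genes. The median focus ratio over the 19 members was 0.912 in naïve and 0.823 in pretreated cells, against 0.916 and 0.832 over 4017 genes. It was lower in 17 of the 19 and in 87.8% of all genes, so the matrix genes moved with the table as a whole. Fbln5 went from 0.912 to 0.678, Timp1 from 0.906 to 0.722 and Fbln2 from 0.879 to 0.694. Fbln1, at 0.738 and 0.902, and Sparc, at 0.782 and 0.794, were the exceptions. At each position of its pair, however, the median Sparc ratio was lower in pretreated cells, as given above.

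A large part of the matrix gene tags lay away from the starts. With each tag given to the gene whose RefSeq start is nearest, 54.6% of the members' sense tags in naïve and 63.6% in pretreated cells lay within 1000 bp of the start, against 70.7% and 80.001% over all genes. The 3′ UTRs held 21.3% and 12.5%, against 4.73% and 4.16%, and exons 19.8% and 19.5%, against 9.02% and 7.004%. Per gene, the median share near the start was 23.1% and 36.7% over 28 members, against 57.2% and 74.1% over 8373 genes, each with at least 1000 sense tags in both groups. Collagen genes had less still near their starts, 17.3% in each group, and most in exons, 70.3% and 70.5%. Sparc had a larger share near its start than the members as a whole, at 77.03% and 72.7%, as did Pcolce, Fstl1 and Bgn. In pretreated cells the Sparc share was still below that of all genes.

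In a long gene the nearest start can be that of a neighbour. With a tag outside 1000 bp given instead to the gene whose transcript the deposited annotation names, an alternative chosen after seeing the data, the members' share near the start was 46.6% and 55.3%. The median per gene was then 17.1% and 16.4% over 32 members, against 50.4% and 68.6% over 8380 genes, so the higher pretreated median above depends on how tags are given to genes. In Fn1 the exons held 34.8% and 47.5% of the tags by nearest start, and 63% and 60.7% by annotated transcript. The 3′ UTR of Timp2 held 79.3% and 43.6% by annotated transcript and none by nearest start.

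**Figure D4:**
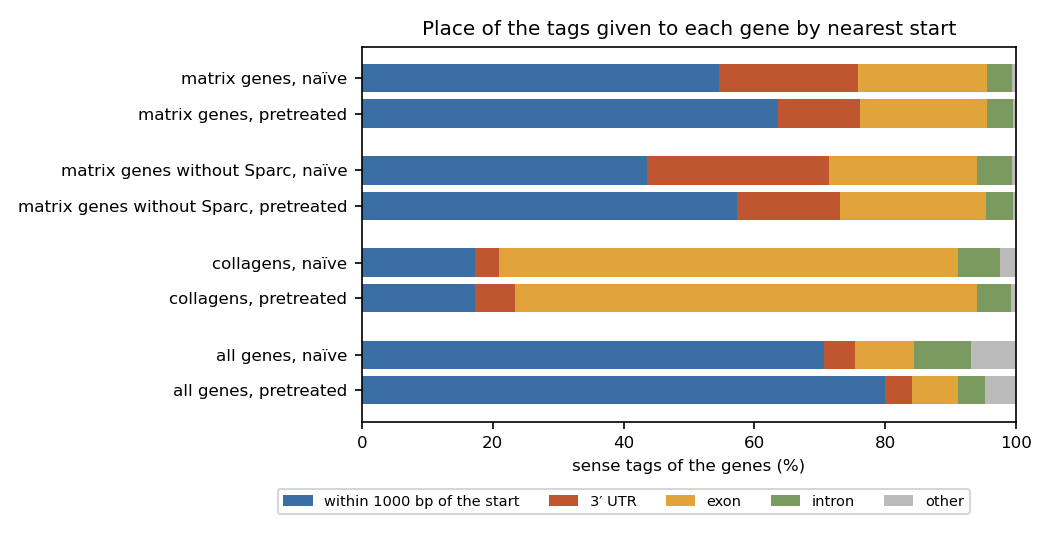
Each bar divides the sense tags of a gene set in 1 group of cells by place, with tags given to genes by nearest start, as percentages on the x axis. The blue part, within 1000 bp of the start, is 54.6% and 63.6% for the matrix genes and 70.7% and 80.001% for all genes (naïve, pretreated), and the 3′ UTR part is larger in the matrix genes. Timp3 alone holds 268446 of the 505481 naïve 3′ UTR tags of the matrix genes and 100778 of the 459140 pretreated ones.

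Some of these inner peaks recurred at the same place from cell to cell. They are given here by annotated transcript. Among the members, 22 windows in 10 genes were over 1000 bp from the start and listed in 20% or more of either group's cells, and 13 of them (59.1%) were in 3′ UTRs, against 21.2% of 534 such windows over all genes. By nearest start 18 of the 22 would remain, without that of Timp2. Of the 22, 13 were listed in a larger share of naïve cells (59.1%), against 66.9% over all genes. When peaks within 150 bp are counted together, 11 of the 22 were. The strongest was in the 3′ UTR of Timp3, in exon 5 of 5 (chr10:85811151-85811300, + strand). It was listed in 89 of 92 naïve cells (96.7%) with 209894 tags, more than the 203144 tags of the Timp3 promoter there. In pretreated cells it was listed in 46 of 85 (54.1%) with 25543 tags, while the promoter had 166067. In Timp2 a 3′ UTR window (chr11:118164572-118164721, - strand) was listed in 74 naïve cells (80.4%) with 45819 tags and in 23 pretreated cells (27.1%) with 4877. The naïve tags there exceed the 2607 of the Timp2 promoter many times over. Peaks within 150 bp were in 91 naïve and 67 pretreated cells for Timp3 and in 80 and 36 for Timp2. Both differences in the windows themselves were as large in cells of 2000000 to 3000000 tags, at 92.9% against 50% for Timp3 and 85.7% against 26.5% for Timp2.

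Other windows went either way, also inside 1 gene. In Fn1 a window in exon 22 of 44 (chr1:71666003-71666152, - strand) was listed in 39 naïve and 1 pretreated cells, and one in its 3′ UTR (chr1:71632343-71632492) in 8 and 50. Peaks lay within 150 bp of the latter in 68 naïve and 80 pretreated cells, so much of that difference is one of exact position. In Sparc a window at the edge of exon 2, annotated as intron (chr11:55223430-55223579, - strand), was listed in 0 naïve and 35 pretreated cells, and its neighbour in exon 2 in 26 and 35. Together, peaks within 150 bp were in 53 naïve and all 85 pretreated cells, with 10682 and 90250 tags. The Sparc 3′ UTR window was listed in 10 and 45 cells, but peaks within 150 bp of it were in 73 and 77, so that difference in cells is mostly one of exact position. The Bgn window in exon 2 was listed in 32 and 6 cells, and peaks within 150 bp in 73 and 60, so here too much of the difference is one of position. Windows in the Fbln2 3′ UTR (27 and 1 cells, 49 and 14 within 150 bp) and Mmp2 exon 9 (29 and 5, 45 and 25 within 150 bp) were listed in more naïve cells by either count.

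**Figure D5:**
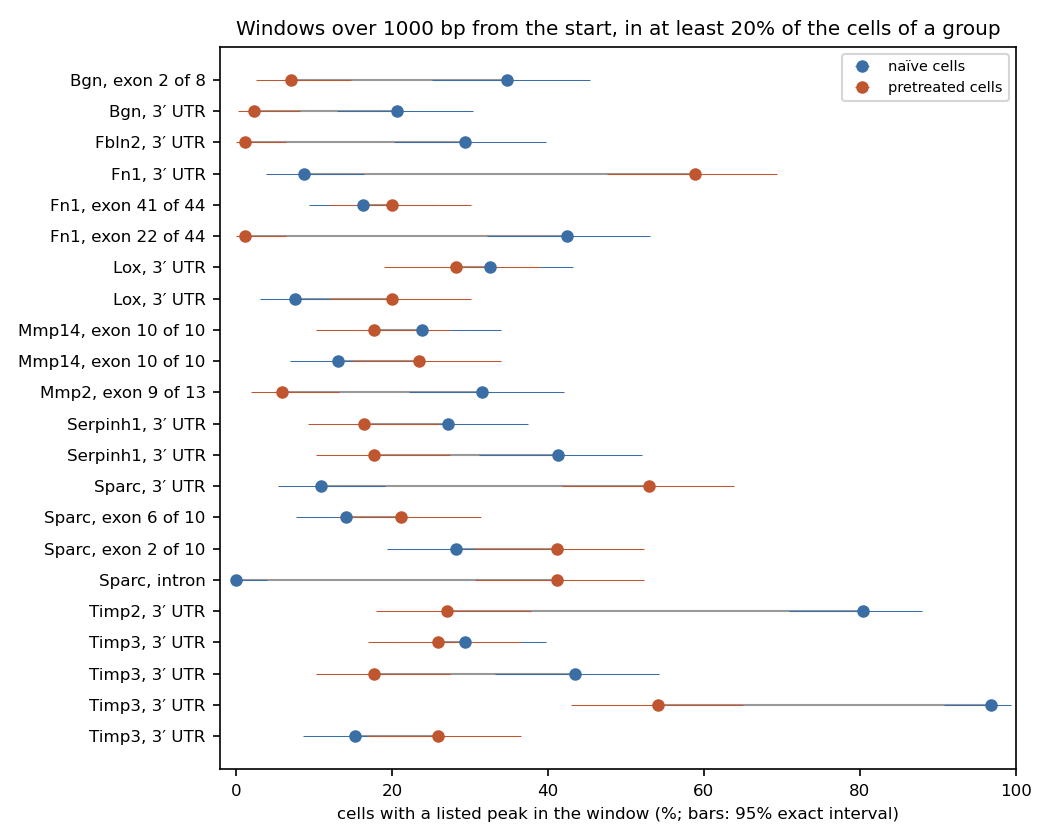
Each row is a window over 1000 bp from the start of a matrix gene, with the percentage of cells that list it on the x axis, naïve in blue and pretreated in orange, and 95% exact intervals. Timp3 and Timp2 show the largest excess in naïve cells, at 96.7% against 54.1% and 80.4% against 27.1%, and the Fn1 and Sparc 3′ UTR windows lie the other way, although peaks within 150 bp of these were in 68 and 80 cells for Fn1 and 73 and 77 for Sparc.

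Related genes from lists fixed beside the members gave a frame for these levels. Of 90 other matrix genes, 24 could be called, with 9 higher and 3 lower, beside 21.8% and 11.3% of all callable genes. The most abundant were Spp1, osteopontin, at 2466 and 3927 CPM, Mgp, a calcification inhibitor, at 1922 and 2668 CPM, and P4hb, a subunit of the collagen prolyl hydroxylase, at 484 and 1035 CPM. Of 15 collagens, 7 could be called and 1 was higher; Col1a1 was 606 and 618 CPM. Of 17 genes of the TGF-beta pathway, a main inducer of matrix genes, 5 could be called. The most abundant was Id3, a target of the BMP branch, at 1296 and 661 CPM. Of 19 matrix receptors 1 could be called and was higher: Itgb1, the beta-1 integrin chain, at 15.03 and 35.4 CPM.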

How the data were processed

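Single cells of 2 groups were profiled by start-site sequencing; tags are reads without molecular identifiers. The deposited signal is a peak's count per 10000000 of all tags in that cell, per the file headers, and the focus ratio is a deposited fraction from 0 to 1. Peaks were called in each cell with HOMER in its start-site mode (width 150 bp, at least 300 bp apart, minimum 200 scaled tags), per the file headers. Bowtie2, HOMER and mm9 are named in the submitters' processing notes; versions are not given in the sources used here. Tags were recovered as signal times header total over 10000000, and all 1082504 peaks came out whole within 0.1 tag or the rounding of the deposited value. Peaks were joined to 553094 deposited windows. The deposited distances to the annotated start, in bp, were used as given. A further 384 columns of per-cell values with no names were not used.

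Tags were summed over kept cells, scaled to CPM, and compared as log2 ratios with 0.5 tag added (Python 3.11.15, pandas 2.3.3, numpy 2.4.6, scipy 1.17.1). Intervals are exact Poisson or binomial (Clopper-Pearson) at 95%. The calling step was tested on simulated data. Full values are given for the 12 members with the highest mean CPM and for those past 2-fold; of other lists, at most the 3 most abundant genes are named. Promoters were shown for the 3 most abundant members, the most increased (Thbs1, not in the RefSeq promoter table) and the 2 most decreased, and members with a leading site over 100 bp from the start, leaving out chromosome 18 and Mmp2, which that table lacks. The members and lists were chosen with earlier results of these data known. Alternatives changed the cells kept, the scaling, the distance limit, the strand, the low-level minimum, the added tags and the annotation. The count of TGF-beta pathway genes past 2-fold is not reported here.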

Additional observations from a re-analysis of the deposited data

Results flagged for a closer look

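Signal appeared in data that no comparison above used, on the strand opposite to each gene within its own windows. These antisense tags numbered 1290 in naïve cells, in 11 cells and 11 matrix genes, led by Hspg2 with 300. In pretreated cells they numbered 9524, in 40 cells and 14 genes, led by Lox with 5515. They equal 0.0993% and 0.404% of the sense tags of the members, and neither group is an untreated control. The same share is not given over all genes, so the difference marks nothing particular to the members.

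The cells left out for low depth also held matrix gene tags: 446 in the 4 naïve cells and 4964 in the 11 pretreated cells, each cell with at least 1 member. That is 1.31% and 1.44% of the promoter tags of those cells, beside 1.18% and 1.34% in the kept cells.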

How the results depend on the processing

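The summed log2 ratio of 0.19 was 0.36 per 1000000 header tags, -0.026 by median of ratios, 0.12 with each cell scaled to its own total, 0.196 without the highest cell of each gene, 0.16 and 0.19 in odd- and even-numbered cells, 0.40, 0.17 and 0.15 within 100 bp, 500 bp and any distance, 0.19 on both strands and 0.31 by GENCODE. The median over members, 0.038, was in the same order 0.33, -0.18, -0.021, 0.19, 0.20, -0.090, -0.14, 0.079, 0.10, 0.10 and 0.21, and -0.015 over windows listed in both groups. It therefore took either sign and gives no direction for the list. Of the 4046 genes behind the main calls, 33.2% stood past 2-fold. Between 5 and 9 members did so in every alternative. The share over all genes and the number of callable members also differ between alternatives, so this range alone does not show stability. Timp1 turned from 1.08 to -0.36 within 100 bp; its windows further in are then not counted.

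The share of tags within 50 bp of the start was 21.7% and 29.2% (naïve, pretreated) without the highest cells, 21.1% and 29.4% in odd-numbered and 22.7% and 30.8% in even-numbered cells, 21.8% in naïve cells over shared windows, 30.2% in pretreated cells on both strands, and 87.3% and 83.1% by GENCODE. The focus ratio was 0.902 and 0.812 without the highest cells, 0.898 and 0.808 in odd-numbered cells, and in pretreated cells 0.817 in even-numbered cells and 0.810 over shared windows. The median share of cells with a peak was 1.09% and 3.53% within 100 bp, 46.7% and 47.1% at any distance, and 3.53% in pretreated cells over shared windows.

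These alternatives were chosen after seeing the data. In cells of 2000000 to 3000000 tags the summed ratio was 0.28, the median 0.40, tags within 50 bp 22.4% and 30.6%, the pretreated focus ratio 0.771 and the far Timp1 share 9.55% and 44.95%; that share was 44.1% in odd-numbered pretreated cells. Without Sparc the summed ratio was 0.178 and tags within 50 bp 40.7% and 56.8%. Member tags outside 1000 bp were 45.4% and 36.4% by nearest start and 53.4% and 44.7% by annotated transcript. Of 283 recomputed member ratios, 228 kept their direction and side of 2-fold, 13 moved past it, 11 fell short of it, 30 uncalled ones changed sign and 1 called one did. No paired analysis was possible because each cell number only names a cell and each group is 1 sample. The gap between odd- and even-numbered cells was wider than the counting interval of the ratio for Thbs1, Fbln5, Fn1, Vcan and Timp1, and narrower for Bgn and Sdc4. Even so, the odd- and even-numbered Bgn ratios both lay below its interval of 1.573 to 1.597. The even-numbered Sdc4 ratio lay above its interval of -1.569 to -1.511.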
